A study of Homo sapiens with 4 samples.

Results

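Nascent RNA of 10 human genes was examined, namely EGR1, EGR2, EGR3, IER2, IER3, IER5, NR4A1, NR4A2, ZFP36 and SRF. They were chosen by name, as short serum response genes outside the AP-1 family. The 10 genes stand among 60656 Ensembl gene IDs in the files, and all 10 were among the 19103 genes with enough reads to be tested.

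Immediate early genes are transcribed within minutes of a growth signal, without new protein synthesis. The ERK kinases phosphorylate ternary complex factors such as ELK1, which sit beside SRF on CArG boxes (its A/T-rich binding site) in the promoters of several of these genes. CREB and its relatives act through cyclic AMP response elements in the same promoters. The products are mostly short-lived transcription factors and regulators that shape the later response. In neurons, DNA cleavage by TOP2B at promoters of some immediate early genes, EGR1 among them, has been linked to their induction.

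The libraries are TTchem-seq of HCT116 cells, a line from a human colorectal tumour. For this method, RNA made during a short 4-thiouridine pulse is purified and sequenced, so the counts weigh synthesis more than stored mRNA. The DKO group (2 libraries) carries TOP2A fused to a mini auxin-inducible degron (mAID) and a TOP2B knockout, and was given 500 µM auxin for 8 h to remove TOP2A protein. The WT group (2 libraries) is labelled wildtype, while the protocol names only the TOP2A mAID line beside the double line and records no auxin for it. Both groups received 2 µM palbociclib, which blocks the kinases CDK4 and CDK6 and so arrests cells in G1, for 28 h and were labelled with 1 mM 4-thiouridine for 30 min. The sources used here do not say how many clones were used or whether replicates were separate cultures, so p-values measure the spread between these libraries, which may be technical. Loss of the enzymes, auxin and clone differences cannot be told apart in this design. As this is bulk RNA, fewer cells of a type and less RNA per cell cannot be told apart either.

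Counted reads per library came to 53000795 and 53777749 in DKO and to 51718468 and 51142867 in WT. TOP2B RNA stood at 147 and 150 CPM (read counts scaled to a common library size) in DKO and at 140.1 and 143 CPM in WT, so this total count does not show the knockout. TOP2A RNA, whose protein is the target of auxin, stood at 165 and 168 CPM in DKO and at 126 and 122 CPM in WT. Reads of the mitochondrial genome made up 3.86% and 3.56% of DKO libraries and 5.16% and 4.64% of WT libraries, a difference whose part in the results was not tested. Of 12 colorectal epithelial markers 8 were tested, with 5 (62.5%) called lower and none higher, beside 21.1% and 19.0% of all tested genes. Among the 5 were ELF3 at a log2 fold change of -0.63, CDH1 at -0.37 and KRT8 at -0.21. The summed level of the 12 markers was 428 to 448 CPM in DKO and 472 to 507 CPM in WT. Without WT replicate 1, 1 of these markers (CDH1) was called lower, with ELF3 at -0.44, KRT8 at -0.12 and KRT18 at -0.09. The line labelled colorectal had almost no reads from the markers CDX1, LGR5, CDH17 and VIL1. Of 12 markers of immune, fibroblast, endothelial and neuronal cells 8 stayed under 10 reads in every library. Of these 8, 2 had no reads in any library, COL1A2 among them. None of the 12 markers was called. Their summed level was 4.75 to 5.3 CPM in DKO and 5.26 to 5.55 CPM in WT.

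All 10 genes are annotated as protein-coding, and 8 of them span at most 10 kb. In the RefSeq annotation of GRCh38.p14 (hg38), EGR1 spans chr5:138465479-138469303 and EGR2 chr10:62811996-62819167. IER2 spans chr19:13150411-13154911, IER3 chr6:30743199-30744547 and IER5 chr1:181088700-181092900. NR4A1 spans chr12:52022832-52059503, which takes in distant alternative starts, and NR4A2 spans chr2:156324437-156332721. ZFP36 spans chr19:39406847-39409407 and SRF chr6:43171269-43181506. The files give 1 count per gene, so exons, introns and UTRs are not separated.

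Promoter windows (250 bases before to 50 after a RefSeq start, GRCh38.p14) were used for 7 of the 10 genes, 11 windows in all. IER3, NR4A2 and EGR3 have no window here. The windows were searched on both strands for the CArG box, for the cyclic AMP response element TGACGTCA and its shorter core TGACG, which lies inside it, for the ETS-type core CCGGAA, and for the EGR sites GCGTGGGCG and GCGGGGGCG. Counts below are of genes, some with more than 1 window, while percentages are of single windows. The 2 are not like for like, as more windows give a gene more chances of a match. CArG boxes were found in windows of 3 genes, EGR1, EGR2 and SRF, and in 1.29% of all 35116 windows. The element TGACGTCA was found in none of them (1.85% of all windows) and TGACG in windows of 4 genes (24.6%). CCGGAA was found in windows of 4 genes (17.2%), GCGGGGGCG in that of SRF alone (5.07%) and GCGTGGGCG in none (0.795%). Windows of 5 genes are shown because 3 of them carry the SRF site and the other 2 belong to genes that were lower in DKO. Capitals mark the matches: runs that open with CCAT are CArG boxes, TGACG or CGTCA is the cyclic AMP core, CCGGAA or TTCCGG the ETS-type core, and GCGGGGGCG the EGR site.
EGR1, chr5:138465229-138465528, plus strand: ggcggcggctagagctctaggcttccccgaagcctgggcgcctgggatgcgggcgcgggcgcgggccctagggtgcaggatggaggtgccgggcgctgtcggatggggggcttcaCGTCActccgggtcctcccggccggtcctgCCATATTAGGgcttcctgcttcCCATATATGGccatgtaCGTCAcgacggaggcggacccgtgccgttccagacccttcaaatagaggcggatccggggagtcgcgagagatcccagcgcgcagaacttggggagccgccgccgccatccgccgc
EGR2, chr10:62816317-62816616, minus strand: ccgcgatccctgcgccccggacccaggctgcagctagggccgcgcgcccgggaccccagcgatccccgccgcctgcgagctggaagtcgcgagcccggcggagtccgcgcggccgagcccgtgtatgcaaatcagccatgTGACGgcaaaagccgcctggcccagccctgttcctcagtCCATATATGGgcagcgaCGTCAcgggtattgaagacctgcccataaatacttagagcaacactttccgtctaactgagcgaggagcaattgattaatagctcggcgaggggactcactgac
SRF, chr6:43171019-43171318, plus strand: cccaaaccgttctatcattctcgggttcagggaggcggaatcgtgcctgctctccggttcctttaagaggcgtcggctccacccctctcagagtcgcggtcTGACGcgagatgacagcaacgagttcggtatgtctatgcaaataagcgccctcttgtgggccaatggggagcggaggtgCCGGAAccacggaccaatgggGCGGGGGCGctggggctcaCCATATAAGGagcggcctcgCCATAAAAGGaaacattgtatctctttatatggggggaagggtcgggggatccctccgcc
IER2, chr19:13150161-13150460, plus strand: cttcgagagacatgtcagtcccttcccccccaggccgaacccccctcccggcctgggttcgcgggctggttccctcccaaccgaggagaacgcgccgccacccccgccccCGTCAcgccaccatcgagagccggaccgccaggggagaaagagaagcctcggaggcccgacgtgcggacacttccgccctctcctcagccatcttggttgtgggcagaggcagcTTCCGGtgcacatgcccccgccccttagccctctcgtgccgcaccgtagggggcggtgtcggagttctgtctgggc
ZFP36, chr19:39406597-39406896, plus strand: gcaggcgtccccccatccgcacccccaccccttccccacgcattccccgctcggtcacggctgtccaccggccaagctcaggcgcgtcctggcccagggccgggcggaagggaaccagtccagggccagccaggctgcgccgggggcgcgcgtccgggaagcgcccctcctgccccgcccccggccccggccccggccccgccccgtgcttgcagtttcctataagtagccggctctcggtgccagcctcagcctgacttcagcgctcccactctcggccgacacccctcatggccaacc
The CArG boxes of EGR1, CCATATTAGG and CCATATATGG, begin 105 and 83 bases before the start. The box of EGR2, CCATATATGG, begins 71 bases before it, in the third of its 3 windows. Those of SRF, CCATATAAGG and CCATAAAAGG, begin 30 and 10 bases before it. The windows of IER2, ZFP36, IER5 and NR4A1 hold no CArG box, which says only that these letters are not in these bases. Those of NR4A1 are chr12:52022582-52022881 and chr12:52037465-52037764, at distant alternative starts. Any start elsewhere in its span was not searched.

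The 10 genes did not move together. NR4A2 rose 1.67-fold and IER3 1.24-fold in DKO. NR4A1 fell by 1.39-fold, ZFP36 by 1.38-fold, IER2 by 1.13-fold and EGR1 by 1.12-fold. SRF, IER5, EGR2 and EGR3 did not pass the test, the last 2 with few reads. In counts, 2 of the 10 were called higher and 4 lower at a Benjamini-Hochberg adjusted p under 0.05 in the quasi-likelihood test of edgeR. Among all tested genes 19.0% were called higher and 21.1% lower, 40.1% in all. The DKO and WT libraries did not overlap for 8 of the 10 genes, with DKO above WT in 2 and below it in 6, against 67.9%, 33.0% and 34.9% of all tested genes. Without WT replicate 1, 1 of the 10 was called higher and 1 lower, and 1023 and 928 of all genes tested then, and without WT replicate 2, 1 and 3 of the 10 and 1467 and 1650 of all. The median log2 fold change of the 10 genes was -0.15, against -0.01 over all tested genes. Fold changes are DKO over WT throughout, with n = 2 libraries per group.

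**Figure D1:**
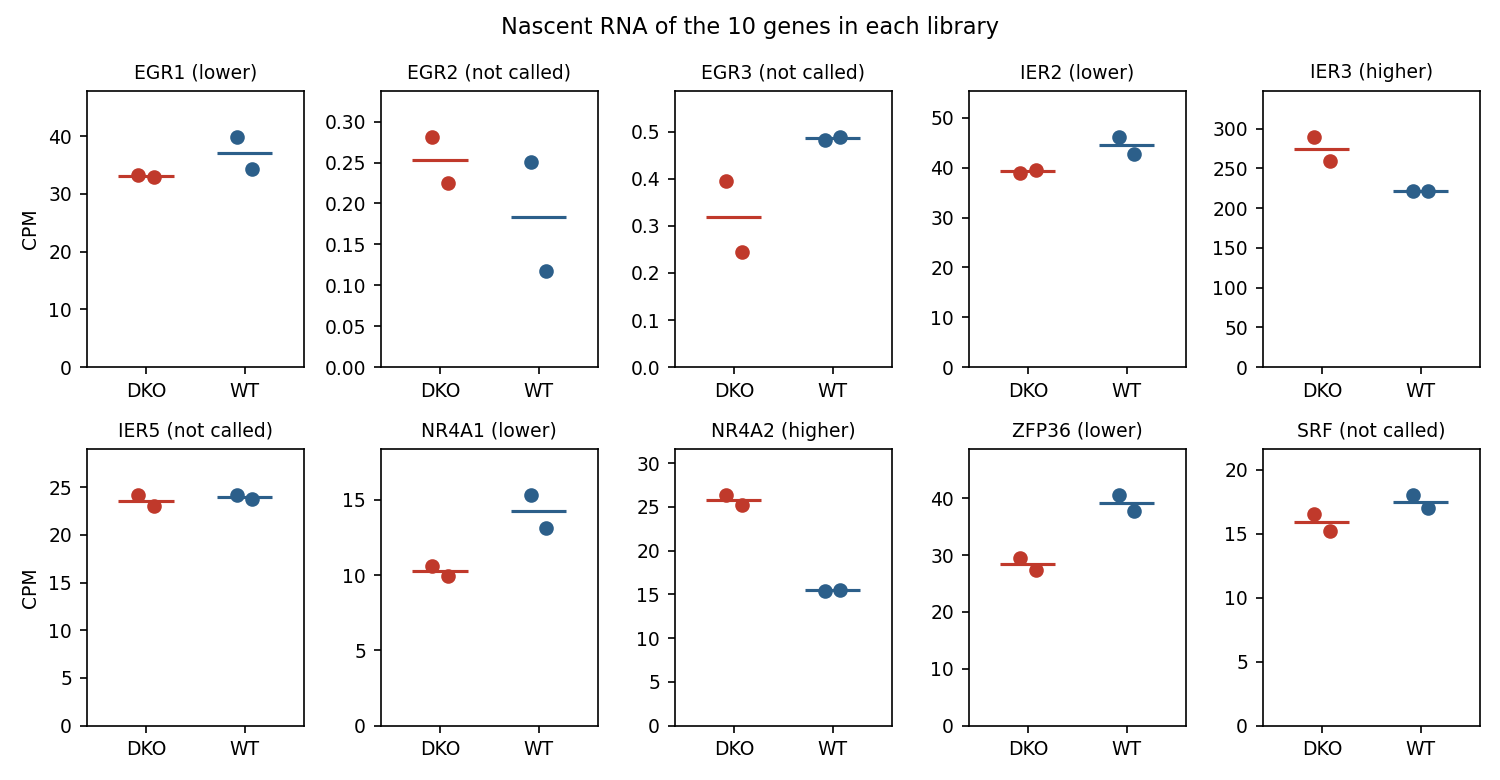
Level of each gene in CPM (linear axes from 0) in the 2 DKO and 2 WT libraries. Points are libraries, bars are group means, and titles give the call of the test. DKO points lie above WT points for NR4A2 (26.4 and 25.2 against 15.4 and 15.5 CPM) and below them for ZFP36 (29.5 and 27.3 against 40.5 and 37.8 CPM).

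SRF, the DNA-binding factor through which many of these genes respond to serum, was little different. It stood at 16.5 and 15.2 CPM in DKO and at 18 and 17 CPM in WT. Both DKO libraries lay narrowly below both WT libraries, as they did for 34.9% of all tested genes. The log2 fold change of -0.14 ± 0.07 (SE) did not pass the test (edgeR adjusted p = 0.128), with a 95% interval from -0.29 to 0.01.

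EGR1, a zinc finger factor that binds GC-rich sites and is a classic SRF target, stood at 33.3 and 32.9 CPM in DKO and at 39.9 and 34.3 CPM in WT. The DKO libraries were nearly equal and lay just below the lower WT library. The log2 fold change was -0.17 ± 0.06 (edgeR adjusted p = 0.0168), and the gap between the WT libraries alone was 0.22 on the log2 scale. Without WT replicate 1 the difference was -0.05 (adjusted p = 0.558), and without WT replicate 2 it was -0.27. It also missed the threshold without DKO replicate 2 (-0.16, adjusted p = 0.0632).

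EGR2, which drives myelination in Schwann cells, had 15 and 12 reads in DKO libraries, against 13 and 6 in WT libraries. EGR3, a relative needed for muscle spindles in mice (chr8:22687659-22693480), had 21 and 13 reads in DKO libraries, against 25 and 25 in WT libraries. The groups overlapped for EGR2, while for EGR3 both DKO counts were below both WT counts. Neither passed the test (log2 fold changes 0.45 ± 0.44 and -0.6 ± 0.33, edgeR adjusted p = 0.435 and 0.142). With 1 library left out, EGR2 ranged from 0.01 without WT replicate 2 to 1.09 without WT replicate 1, and EGR3 from -0.99 without DKO replicate 1 to -0.3 without DKO replicate 2. From counting error alone, the ratio of DKO to WT reads had an exact 95% interval of 0.734 to 2.6 for EGR2 and of 0.411 to 1.03 for EGR3, so at this depth moderate changes of either gene were not detectable.

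NR4A1 and NR4A2 encode orphan nuclear receptors (Nur77 and Nurr1) of 1 family, and they moved in opposite directions. NR4A2, best known for the development of midbrain dopamine neurons, stood at 26.4 and 25.2 CPM in DKO and at 15.4 and 15.5 CPM in WT. Both DKO libraries were far above both WT libraries, and the WT libraries were almost equal. Its log2 fold change was 0.74 ± 0.07 (edgeR adjusted p = 2.16e-19), and it ranged from 0.71 to 0.77 and stayed called with any 1 library left out. NR4A1, which is induced in T cells by antigen receptor signals, stood at 10.6 and 9.92 CPM in DKO and at 15.3 and 13.2 CPM in WT. The groups did not overlap, and the WT libraries differed more than the DKO libraries. Its log2 fold change was -0.47 ± 0.08 (edgeR adjusted p = 7.35e-07), and without WT replicate 1 it was -0.36 and missed the threshold (adjusted p = 0.0755).

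The ratio of the 2 receptors within a library needs no scaling between libraries. NR4A1 had 0.403 and 0.394 reads for each read of NR4A2 in DKO and 0.995 and 0.847 in WT. The log2 ratio was thus lower in DKO by a difference of -1.21, with an SD of 0.02 in DKO and 0.16 in WT. The exact two-sided permutation test gave p = 0.333, the smallest that 2 libraries against 2 allow.

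Of the IER genes, IER3, a regulator of apoptosis also known as IEX-1, had the highest counts. It stood at 290.0 and 259.8 CPM in DKO and at 221 and 221 CPM in WT. Both DKO libraries were above WT, and the gap between them was smaller than the gap of the lower one to WT. The log2 fold change was 0.31 ± 0.05 (edgeR adjusted p = 7.76e-09). It was 0.23 without DKO replicate 1 and 0.39 without DKO replicate 2. Without either of the nearly equal WT libraries it was 0.31, and the call was lost.

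IER2, a small nuclear protein, stood at 39 and 39.5 CPM in DKO and at 46.2 and 42.8 CPM in WT. DKO libraries were close together and below WT. Its log2 fold change was -0.18 ± 0.06 (edgeR adjusted p = 0.00541), and it was -0.12 without WT replicate 1 (adjusted p = 0.211) and -0.24 without WT replicate 2 (adjusted p = 0.0524). IER5, which acts with the phosphatase PP2A and the heat shock factor HSF1, stood at 24.1 and 23 CPM in DKO and at 24.2 and 23.8 CPM in WT. Its groups overlapped. The log2 fold change was -0.02 ± 0.07 (edgeR adjusted p = 0.807), with a 95% interval from -0.15 to 0.11.

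ZFP36 encodes tristetraprolin, which binds AU-rich elements and sends cytokine and immediate early mRNAs to decay. It stood at 29.5 and 27.3 CPM in DKO and at 40.5 and 37.8 CPM in WT. Both DKO libraries were well below both WT libraries. The log2 fold change was -0.46 ± 0.06 (edgeR adjusted p = 8.1e-12). It ranged from -0.52 to -0.41 with 1 library left out and was called each time.

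**Figure D2:**
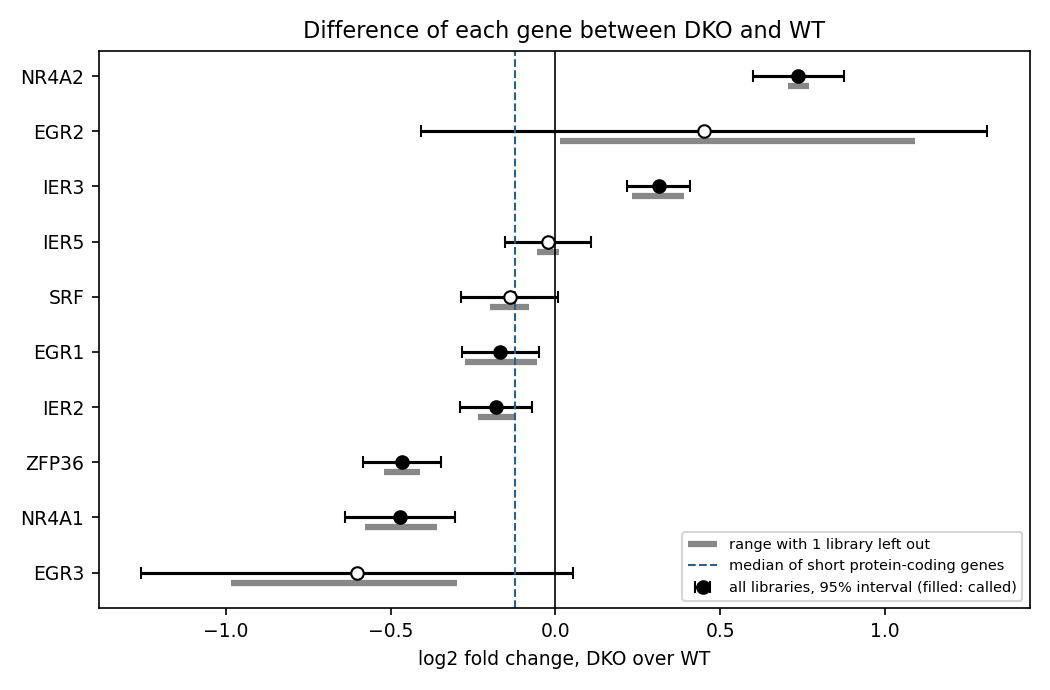
Log2 fold change of each gene, DKO over WT. Circles are values from all 4 libraries with 95% intervals (filled where called), grey bars span the values with 1 library left out, and the dashed line is the median of protein-coding genes spanning at most 10 kb (-0.12). NR4A2 (0.74) and IER3 (0.31) lie to the right of 0, and ZFP36 (-0.46) and NR4A1 (-0.47) lie to the left of both lines, while the bars of EGR2 and EGR3 are wide.

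Ratios within a library were also taken for other pairs. They come from the same counts as the fold changes and so add no separate support. IER2 had 0.135 and 0.152 reads for each read of IER3 in DKO and 0.209 and 0.194 in WT, a log2 difference of -0.49. IER3 had 12 and 11.3 reads for each read of IER5 in DKO and 9.16 and 9.31 in WT, a log2 difference of 0.34. IER2 had 1.32 and 1.45 reads for each read of ZFP36 in DKO and 1.14 and 1.13 in WT, a log2 difference of 0.29. IER2 to IER5 differed by -0.16. In these pairs the DKO libraries lay to one side of the WT libraries (exact two-sided permutation p = 0.333 in each, the smallest possible). EGR1 to SRF overlapped, at 2.01 and 2.16 in DKO and 2.22 and 2.02 in WT (log2 difference -0.02, exact permutation p = 0.667). EGR1 to EGR2 (-0.72) and EGR1 to EGR3 (0.48) rest on the few reads of the second gene. With 1 library left out, EGR1 to EGR2 ranged from -1.15 without WT replicate 1 to -0.28 without WT replicate 2, and EGR1 to EGR3 from 0.15 without DKO replicate 2 to 0.82 without DKO replicate 1. The p-values are not adjusted, since none of the 8 ratios could pass.

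**Figure D3:**
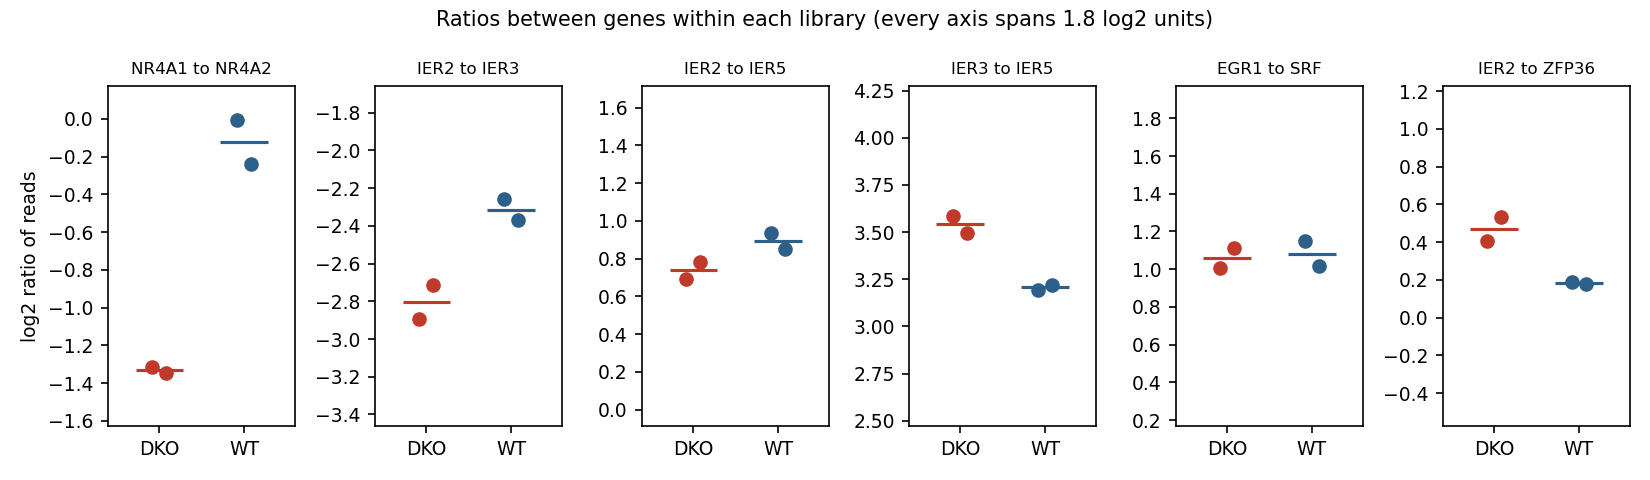
Log2 ratio of the reads of 2 genes within each library, for 6 pairs, with DKO left of WT in each panel. Points are libraries and bars are means, and every panel spans the same range. NR4A1 to NR4A2 shows the widest separation (-1.31 and -1.34 in DKO, -0.01 and -0.24 in WT), and EGR1 to SRF overlaps.

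Levels per length were compared on the scale of CPM per kb of annotated span, as exon lengths were not used here. IER3 had the highest level, at 204 CPM per kb in DKO and 164 in WT. ZFP36 followed at 11.1 in DKO and 15.3 in WT. IER2 (8.73 in DKO and 9.89 in WT) and EGR1 (8.65 and 9.71) were next, and their libraries overlapped in both groups, so their order is not resolved. IER5 (5.61 in DKO and 5.7 in WT), NR4A2 (3.11 and 1.87) and SRF (1.55 and 1.71) were lower. NR4A1, at 0.28 in DKO and 0.388 in WT, is understated by its long annotated span. EGR3 had 0.0548 in DKO and 0.0834 in WT, and EGR2 0.0353 and 0.0257. The order of the genes by mean was the same in both groups.

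Libraries of the same group differed in a like direction for most of these genes. Among the 8 genes whose log2 CPM averaged 3 or more, DKO replicate 1 was above DKO replicate 2 in 7 (IER2 was the exception) and WT replicate 1 above WT replicate 2 in 7 (NR4A2 was the exception). Among the 10036 tested genes at that level, these shares were 50.6% and 46.5%. The median gap was 0.08 in DKO and 0.09 in WT on the log2 scale, against 0.00 and -0.01 for all genes at that level. The wider of both replicate gaps was 0.22 for EGR1, larger in size than its log2 fold change of -0.17. For IER2 and SRF it was 0.11 and 0.12, smaller in size than the log2 fold changes of -0.18 and -0.14. It was 0.07 for NR4A2, 0.22 for NR4A1, 0.11 for ZFP36 and 0.16 for IER3, smaller than the log2 fold changes of 0.74, -0.47, -0.46 and 0.31.

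Short genes as a class were lower in DKO. Of all 13083 tested protein-coding genes, 20.3% were called higher and 25.2% lower, with a median log2 fold change of -0.03. Of the 2301 that span at most 10 kb, 10.5% were called higher and 31.2% lower, with a median of -0.12. Of the 8 genes here within that span, 2 were called higher and 3 lower, with a median of -0.10. EGR1 (43.9% of these short genes had a smaller value), IER2 (42.2%) and IER5 (65.1%) lay in the middle of their distribution. NR4A2 was near its top, with 3.04% of short genes above it, and IER3 had 9.73% above it. ZFP36 had 13.2% of short genes below it. IER2 and ZFP36 lie on chromosome 19, where 36.6% of 907 tested protein-coding genes were called lower and 6.06% higher (median log2 fold change -0.13). On chromosome 2, which holds NR4A2, 26.3% were called higher and 17.5% lower, and on chromosome 6, which holds IER3 and SRF, 27.6% and 18.9%. Chromosome 5, which holds EGR1, had 25.7% higher and 18.5% lower, chromosome 12, which holds NR4A1, 20.6% and 20.4%, and chromosome 1, which holds IER5, had 276 of 1350 genes higher and 337 lower. On chromosomes 8 and 10, which hold EGR3 and EGR2, 27.1% and 26.5% were called higher and 19.1% and 19.9% lower.

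The nearest tested protein-coding genes on each side were also compared. Next to IER3, FLOT1 (a membrane raft protein, 0.512 kb away) rose by a log2 of 0.61 ± 0.09 (edgeR adjusted p = 5.52e-10), and DDR1, a collagen receptor 136 kb away, rose by 0.18. FLOT1 stood at 654 and 747 reads in DKO, against 446 and 439 reads in WT, and was called with any 1 library left out. Next to NR4A2, GPD2, a mitochondrial enzyme 67.6 kb away, rose by 0.27 ± 0.05, less than NR4A2 itself, and GALNT13, 1868 kb away, fell by 0.32 on the log2 scale. Next to ZFP36, PLEKHG2 fell by 0.34 (adjusted p = 0.0383), a call lost with any 1 library left out, and MED29, a Mediator subunit, was at -0.18 (adjusted p = 0.0555). Next to NR4A1, ATG101 fell by 0.2 and TAMALIN was at 0.39 (adjusted p = 0.083). Beside IER5, which was not called, MR1 rose by 0.65 ± 0.09 and was called with any 1 library left out, while CACNA1E on its other side was at 0.36 (adjusted p = 0.364).

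The genes beside EGR1 and IER2 were not called. REEP2 was at -0.33 and ETF1, a translation release factor, at -0.09 beside EGR1. STX10, whose annotated span lies 0.036 kb from that of IER2, was at -0.07 and CACNA1A at -0.15. Beside SRF, PTK7 fell by 0.19 and CUL9 was at -0.01. Beside EGR2, ADO and NRBF2 each fell by about the same amount (-0.21 and -0.19), and beside EGR3, PEBP4 rose by 0.75 on 24 to 53 reads per library while BIN3 was at -0.05. The calls of DDR1, GPD2, ATG101, GALNT13, PTK7, ADO, NRBF2 and PEBP4 ended without either WT library in turn, and those of ADO, NRBF2, DDR1 and ATG101 also without DKO replicate 2 and those of GALNT13 and PEBP4 without DKO replicate 1. ADO ranged from -0.33 without DKO replicate 1 to -0.09 without DKO replicate 2. Without DKO replicate 2, NRBF2 was at -0.11 and DDR1 at 0.1, and without DKO replicate 1, GALNT13 was at -0.19 and PEBP4 at 0.5. The annotation places IER3-AS1 over part of IER3, and it had only 13 and 17 reads in DKO and 10 and 9 in WT. NR4A1AS, over the end of NR4A1, had no reads in any library.

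**Figure D4:**
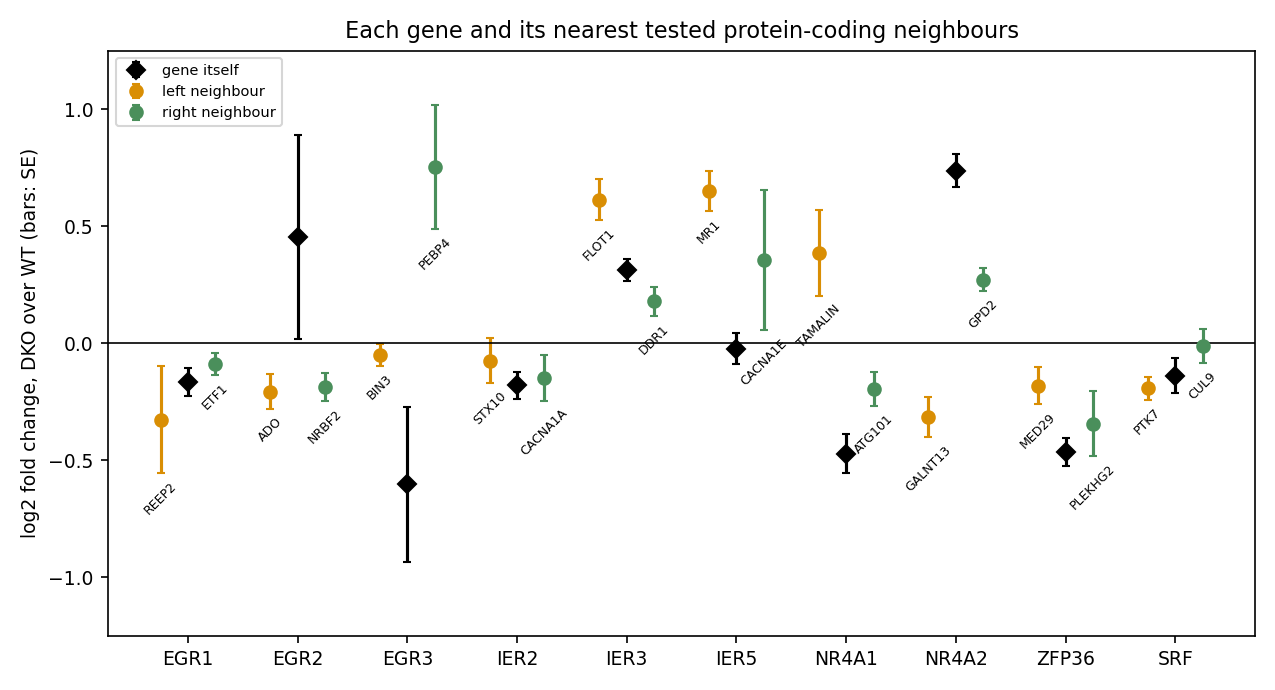
Log2 fold change (DKO over WT, bars are SE) of each of the 10 genes (black diamonds) and of the nearest tested protein-coding gene at lower (left) and higher (right) coordinates. FLOT1 (0.61) and MR1 (0.65) exceed the IER genes beside them, whereas NR4A2 (0.74) exceeds GPD2 (0.27).

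Other genes of the pathway were counted from lists drawn up by function. Relatives of the 10 genes were few. Of 5 paralogs 4 were tested, and IER5L (-0.52 ± 0.07) and ZFP36L2, a relative of tristetraprolin (-0.35 ± 0.08), fell, while ZFP36L1 was at 0.04 and NR4A3 at 0.06. EGR4 had 2 to 4 reads per library. ZFP36L2 lost its call without either WT library (adjusted p = 0.113 and 0.128). Of 4 partners, the EGR corepressor NAB2, itself induced by EGR factors, fell by 0.69 on the log2 scale (SE 0.09, edgeR adjusted p = 1.46e-12), at 457 and 492 reads in DKO and 766 and 711 in WT. Its relative NAB1 rose by 0.19 (adjusted p = 0.00157, lost without either WT library). The receptor partners RXRA (-0.11) and RXRB (0.08) were not called.

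Of 15 upstream kinases 3 were called higher and 4 lower (median -0.08), near the 19.0% and 21.1% of all tested genes. Without WT replicate 1 none was higher and 2 were lower, and without WT replicate 2 none was higher and 3 were lower. RPS6KA5 (MSK1), which phosphorylates CREB and histone H3 at immediate early genes, fell by 0.72 (SE 0.05, edgeR adjusted p = 6.94e-32). Its relative RPS6KA4 (MSK2) fell by 0.36 and the ERK activator MAP2K1 by 0.32. The ERK-activated kinases RPS6KA2 (0.2) and RPS6KA3 (0.14) and BRAF (0.12) rose slightly. The calls of RPS6KA2, RPS6KA3 and BRAF ended without either WT library, those of RPS6KA3 and BRAF (0.07) also without DKO replicate 2, and that of RPS6KA4 without WT replicate 1 (adjusted p = 0.0638).

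Factors that act on these promoters with SRF or CREB were set beside all tested genes, of which 19.0% were called higher and 21.1% lower. Of 13 such factors 5 (38.5%) were higher and 2 (15.4%) lower (median 0.04). Without either WT library in turn, 1 was higher (ELK3) and 1 lower (CRTC1), and without DKO replicate 2, 3 were higher. The ternary complex factor genes ELK3 (0.33 ± 0.05) and ELK1 (0.19 ± 0.07) rose, as did CREBBP, the CREB-binding acetyltransferase (0.18 ± 0.05). CRTC1, a CREB coactivator (-0.33 ± 0.05), and ATF1 (-0.13 ± 0.05) fell. ELK1, CREBBP and ATF1 lost their calls without either WT library, and ELK1 and ATF1 also without DKO replicate 1 (ATF1 at -0.21 without WT replicate 1 and -0.06 without WT replicate 2), whereas ELK3 and CRTC1 kept them with any 1 library left out.

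Cytoskeletal genes that SRF drives with its MRTF cofactors were likewise set beside the 19.0% higher and 21.1% lower of all tested genes. Of 17 tested members 4 (23.5%) were higher and 7 (41.2%) lower (median 0.01). Without WT replicate 1, 1 was higher (FHL1) and 2 were lower (MYL9 and VCL), and without WT replicate 2, 2 were higher and 5 lower. MYL9, a myosin light chain on chromosome 20 (-1.05 ± 0.09), TPM1 (-0.33) and CNN2 (-0.33) fell most. FHL1 (0.77 ± 0.08), ACTA2 (0.48 ± 0.16) and PDLIM5 (0.36 ± 0.05) rose most. MYL9 and FHL1 were called with any 1 library left out, TPM1 and ACTA2 lost their calls without either WT library or DKO replicate 1, and CNN2 and PDLIM5 without WT replicate 1. The CCR4-NOT deadenylase, which tristetraprolin recruits to mRNAs, had 3 of 13 genes higher and 3 lower (median -0.03), near the shares of all tested genes. They were led by CNOT6L (0.37 ± 0.05) and the antiproliferative adaptor genes TOB1 (-0.39 ± 0.05) and TOB2 (-0.38 ± 0.05), all called with any 1 library left out. CNOT2 (0.16) and CNOT1 (0.13) were also higher and CNOT9 (-0.17) lower, calls that ended without either WT library and, for CNOT1 and CNOT2, without DKO replicate 2.

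Of 37 tested members of a list of other immediate early genes 9 (24.3%) were higher and 16 (43.2%) lower (median -0.14), beside 19.0% and 21.1% of all tested genes and 10.5% and 31.2% of short protein-coding genes (median -0.12). With WT replicate 1 left out the test called 4 higher and 4 lower, and with WT replicate 2 left out 3 higher and 11 lower. SGK1, a serum-induced kinase (1.22 ± 0.11), CCN2 (0.92 ± 0.13) and JUN (0.52 ± 0.08) rose most. FOS (-0.91 ± 0.08), FOSB (-0.86 ± 0.1) and KLF2 (-0.79 ± 0.08) fell most among genes averaging 1 or more on the log2 CPM scale. FOS (-0.6) and FOSB (-0.53) lost their calls without WT replicate 1, FOSB was also at -0.54 without DKO replicate 2, and JUN (0.38) lost its call without WT replicate 2. Heat shock genes had none of 7 tested members higher and 2 (28.6%) lower (median -0.04), beside 19.0% and 21.1% of all tested genes. The 2 were DNAJB1 (-0.35 ± 0.05) and HSPA1B (-0.89 ± 0.27), which has a near-identical copy. Both lost their calls without WT replicate 1 (HSPA1B at -0.45), and HSPA1B also without DKO replicate 1. Their summed level was 956 and 830 CPM in DKO and 939 and 899 CPM in WT.

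**Figure D5:**
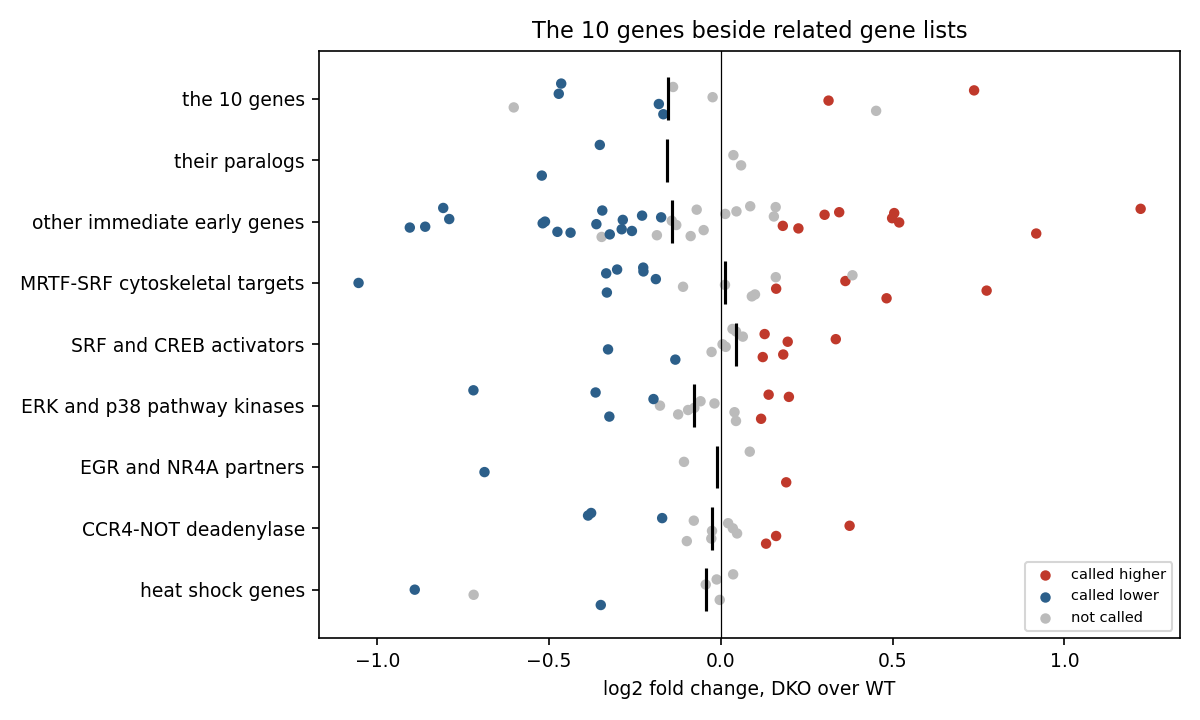
Log2 fold change (DKO over WT) of every tested gene in each list, called higher (red), called lower (blue) or not called (grey), with a bar at the list's median. The 10 genes (median -0.15) and other immediate early genes (-0.14) spread to both sides of 0.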

How the data were processed

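HCT116 cells were profiled by TTchem-seq, 2 libraries in DKO and 2 in WT. Per the labels' protocols, 66 ng of labelled RNA per sample went into a stranded kit and was read as single reads of 75 bp. The authors deposited 1 file per library, which holds the raw count of reads for each Ensembl gene. The submitters' processing notes name hg38, featureCounts 1.6 and STAR 2.7.3a. Which annotation and strand setting were used, and whether exons or whole genes were counted, is not given in the sources used here, so where genes overlap on either strand their reads cannot be separated. Values are relative to each library's total, as no spike-in entered.

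Each file lists 60656 IDs. IDs were stripped of their version and matched to symbols (42020 matched) and to RefSeq GRCh38.p14 (40214 matched). Libraries were grouped by title. The 2 groups were compared with the quasi-likelihood test of edgeR 4.0.16 (R 4.3.3), on a model of group alone. Genes were kept by filterByExpr (count 10 and total 15 as minima), TMM factors ran from 0.992 to 1.005, and p-values were adjusted over all 19103 tested genes. CPM uses TMM-scaled library sizes, except summed levels of lists, which use raw totals. Log2 CPM used a prior count of 2. SE is the absolute log2 fold change over the square root of F. It pools spread over genes and can be too small where replicates disagree. Counting intervals are exact binomial and cover counting error only. Replicates differed by more than sampling noise (chi-square per degree of freedom of 4.97 in DKO and 4.27 in WT).

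Alternatives were DESeq2 size factors, total counts, upper quartile factors, other count filters, limma voom (limma 3.58.1), DESeq2 1.42.0 with its Wald test, edgeR with robust=TRUE, a replicate block, and each library left out. Named genes are the 10 genes, the 3 called genes of each list that moved most each way (log2 CPM averaging 1 or more), nearest neighbours, overlapping genes, TOP2A and TOP2B. Uncalled list genes, HSPA1B and the markers with few reads were named beyond that rule, after their values were seen. The 10 genes, the lists and the motifs were chosen with earlier results of these data known. Promoter sequences are from RefSeq. Figures used matplotlib 3.10.9.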

Additional observations from a re-analysis of the deposited data

How the results depend on the processing

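Over 13 alternatives, NR4A2 and ZFP36 were called in 13, NR4A1 in 11, IER2 and IER3 in 10 and EGR1 in 8, each with its direction kept. IER5 and SRF were called in none. EGR2 and EGR3 were called in none of the 12 that gave a value, as neither reaches 50 reads in 2 libraries.

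With no count filter beyond 1 read, 1640 genes were called higher and 1655 lower in all. Of the 10 genes that left 1 higher (NR4A2) and 1 lower (ZFP36), and of other immediate early genes 3 higher and 6 lower. The Wald test of DESeq2 called 2479 genes higher and 2524 lower, against 3632 and 4025 in the main fit. The cause was not tested. EGR1 also missed the threshold with upper quartile factors (adjusted p = 0.0654) and in DESeq2 (0.132).

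With 1 library left out, 1023 to 3127 genes were called higher and 928 to 3443 lower. Both lowest counts came without WT replicate 1. Each such fit takes the spread of the lone library from the other group's pair. The cause was not tested. Of the 10 genes, 1 to 2 were then higher and 1 to 4 lower, with a median of -0.21 to -0.076. Of other immediate early genes 3 to 10 were higher and 4 to 17 lower. The log2 ratio of EGR1 to SRF ranged from -0.090 to 0.043 and changed sign, to 0.028 without DKO replicate 1 and 0.043 without WT replicate 1. The cause was not tested.

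The replicate numbers are not said to pair libraries, and same-numbered libraries did not deviate together over all tested genes (r = 0.01). That value does not describe the genes here. Of the 8 averaging 3 or more on the log2 CPM scale, replicate 1 was above replicate 2 in 7 in each group. With the replicate block, 3742 genes were higher and 4078 lower, and the 10 genes again gave 2 and 4. Upper quartile factors moved the median of all genes to 0.03. Depth limits EGR2 and EGR3, which have 6 to 25 reads per library.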
